A study of Mus musculus with 6 samples.

Results

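Pancreatic duct and primary cilium genes were followed in the embryonic mouse pancreas, with and without a stabilized form of β-catenin in its epithelium. The genes were 9 chosen by symbol, Spp1, Cftr, Car2, Prom1, Pkhd1, Bicc1, Dcdc2a, Slc4a4 and Foxj1, and 8 of them had a row on the array, out of 19938 genes tested. Spp1, which encodes the secreted phosphoprotein osteopontin, is not analysed here. RNA came from pancreata of E13.5 mouse embryos, with 3 wild type pools and 3 pools of Pdx-Cre embryos that carry the beta catenin-exon3 floxed (active) allele (activated pools), and each pool was hybridized to 1 Affymetrix Mouse Gene ST array. In the activated pools Cre is driven by the Pdx1 promoter, which is active in the epithelium of the pancreatic primordium, and it removes exon 3 of 1 copy of Ctnnb1, so that the β-catenin made is not degraded. Such a Cre acts in epithelium and need not reach every cell, whereas the RNA is that of the whole organ. Each pool held 3 pancreata per the study's methods. The labels call the controls wild type, and whether they carried Cre or the floxed allele alone was not stated there.

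The ducts of the pancreas collect the enzymes of the acini and flush them to the gut with a fluid rich in bicarbonate. Carbonic anhydrase and a basolateral sodium bicarbonate cotransporter supply that bicarbonate, and the chloride channel Cftr carries anions across the apical membrane. At E13.5 the cells that will line the ducts lie in the trunk of the branching epithelium, and each bears a primary cilium, a single non-motile antenna of microtubules that senses flow and organizes Hedgehog signaling. Mutations in proteins of the cilium and its base cause cystic kidneys, and often cystic bile and pancreatic ducts as well.

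Of the 8 duct and cilium genes measured, 5 did not pass the test, 3 were lower in the activated pools and 0 were higher. All 3 that fell belong to cystic disease or to the primary cilium. Of 60 further genes of that kind 0 were lower, and of 22 further genes of duct transport and the duct surface 9 were. The split by role therefore describes these members only. Dcdc2a fell 5.36-fold, Pkhd1 3.92-fold and Bicc1 1.36-fold, whereas the genes of bicarbonate transport, Prom1 and Foxj1 did not pass. Across all genes tested, 7.53% were lower and 6.59% were higher at an adjusted p under 0.05 (limma, Benjamini-Hochberg). No gene called higher was among the 8, and at an unadjusted p under 0.05 1 was higher (Car2) and the same number, 3, were lower. The median log2 change of the 8 was -0.06, against 0.03 over all genes tested. The members were chosen with earlier results of these data known, so this count describes them and is no test of the list.

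Values are log2 expression as deposited, and a difference of 1 is a 2-fold change. Across genes, which are not independent replicates, Pearson r was 0.993 to 0.997 between pools of 1 genotype and 0.973 to 0.979 between pools of both. In the wild type pools the tissue label was checked against 5 markers of the early pancreatic epithelium, Pdx1, Ptf1a, Cpa1, Nkx6-1 and Neurog3. Their mean level lay between 10.22 and 10.57 in the wild type pools and between 6.81 and 6.96 in the activated pools. All 5 were lower, with log2 changes from -4.61 to -2.30. The study lists all 5 as lowered on these arrays, so their fall is no separate result and no check of the activated pools. In a bulk sample, fewer cells of a type and less RNA per cell cannot be told apart.

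**Figure D1:**
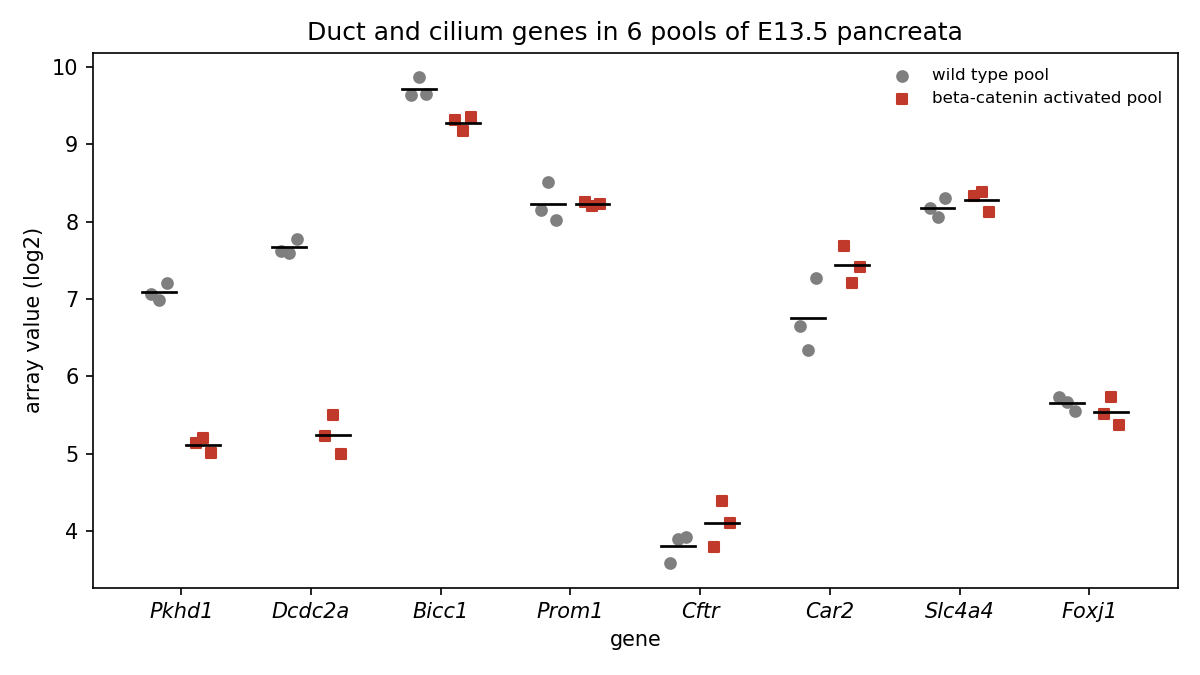
Array value (log2, vertical axis) of the 8 duct and cilium genes measured, with each point 1 pool and each bar the mean of 3 pools. The activated pools (red squares) of Pkhd1, Dcdc2a and Bicc1 lie wholly below the wild type pools (grey circles), and those of the other 5 genes overlap with them.

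Pkhd1 encodes fibrocystin, a large membrane protein of the primary cilium whose loss causes recessive polycystic kidney disease with malformed bile ducts. Its array values were 7.07, 6.99 and 7.20 in the wild type pools and 5.136, 5.203 and 5.002 in the activated pools. The groups lay far apart, with each activated pool at least 1.79 below each wild type pool. The log2 change of Pkhd1 was -1.97 (SE of the change 0.10, limma adjusted p = 1.19e-06, with n = 3 pools in each group), the 119th largest decrease of the 19938 genes.

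Dcdc2a encodes a doublecortin-domain protein that binds microtubules and lies in the primary cilium, and mutations of its human counterpart cause kidney disease and inflammation of the bile ducts. Its array values were 7.62, 7.60 and 7.78 in the wild type pools and 5.232, 5.503 and 4.998 in the activated pools. No activated pool came within 2.09 of a wild type pool. The log2 change of Dcdc2a was -2.42 (SE 0.13, limma adjusted p = 1.62e-06, n = 3), the 82nd largest decrease.

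The promoters of these strongly lowered genes are printed beside that of Cftr, a duct gene that did not pass the test. Each run is the 250 bases before the annotated start in RefSeq (GRCm38.p6), read 5′ to 3′ on the strand of the gene. Pkhd1 lies on the minus strand of chr1:20618058-20618307, Dcdc2a on the plus strand of chr13:25055754-25056003 and Cftr on the plus strand of chr6:18170437-18170686.
Pkhd1: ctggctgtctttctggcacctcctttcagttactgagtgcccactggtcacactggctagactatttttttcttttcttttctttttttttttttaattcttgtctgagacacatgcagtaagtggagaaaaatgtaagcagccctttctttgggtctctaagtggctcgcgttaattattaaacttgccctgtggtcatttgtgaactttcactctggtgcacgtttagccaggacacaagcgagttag
Dcdc2a: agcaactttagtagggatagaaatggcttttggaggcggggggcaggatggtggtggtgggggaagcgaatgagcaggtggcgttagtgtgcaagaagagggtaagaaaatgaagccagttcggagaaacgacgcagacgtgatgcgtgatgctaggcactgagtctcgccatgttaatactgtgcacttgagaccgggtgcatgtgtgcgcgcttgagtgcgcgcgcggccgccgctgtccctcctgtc
Cftr: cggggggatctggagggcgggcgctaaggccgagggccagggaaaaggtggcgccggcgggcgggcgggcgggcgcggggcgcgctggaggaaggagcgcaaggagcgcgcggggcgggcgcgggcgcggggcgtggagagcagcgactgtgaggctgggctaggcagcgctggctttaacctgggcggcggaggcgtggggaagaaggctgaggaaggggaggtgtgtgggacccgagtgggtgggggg

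Over these bases G and C made up 42.0% in Pkhd1, 57.2% in Dcdc2a and 76.4% in Cftr, against a median of 52.4% over the 32851 promoters of this length. Promoters were found for 6 of the 9 genes (Pkhd1, Dcdc2a, Spp1, Prom1, Cftr and Slc4a4). On both strands, ATTGAT (the core read by Onecut factors, in 6.72% of all promoters), GTTGCC (a half-site of RFX factors, 10.4%) and CTTTGAA (a core of TCF/LEF factors, 4.46%) had 0 matches in the promoters of the 6 genes. The search says only that these letters are not in this window.

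Bicc1 encodes an RNA-binding protein of the cytoplasm whose loss causes kidney cysts in mice. Its array values were 9.64, 9.87 and 9.65 in the wild type pools and 9.31, 9.17 and 9.35 in the activated pools. The groups did not overlap, but the gap between the nearest pools was 0.29. The log2 change of Bicc1 was -0.44 (SE 0.10, limma adjusted p = 0.0163, n = 3). This call was lost without wild type replicate 2 (adjusted p = 0.0527), without activated replicate 1 (adjusted p = 0.0542), with the replicate number as a block (adjusted p = 0.0567) and with all rows of the array in the fit (adjusted p = 0.0627), in a range of 0.00801 to 0.0627 over its alternatives from limma. A further row of Bicc1 on the array had a log2 change of -0.35 (SE 0.12, adjusted p = 0.168 from limma over all rows).

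Duct and cilium genes whose 3 activated pools lie below the 3 wild type pools numbered 3, and those with the opposite order 0. Over all genes the shares were 13.9% and 16.9%.

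The 3 genes of bicarbonate and chloride transport among the members did not pass the test, and all 3 had a positive log2 change. Over all genes tested 8471 of 19938 were below 0, so the shared sign is no result. Cftr, the channel of the apical duct membrane, had array values of 3.58, 3.90 and 3.91 in the wild type pools and 3.79, 4.39 and 4.11 in the activated pools. The lowest activated pool lay among the wild type pools, and the log2 change was 0.30 with a 95% interval of -0.05 to 0.65 (adjusted p = 0.278 from limma, n = 3). The mean level of Cftr lay below the lower quartile of the genes tested.

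Slc4a4, the sodium bicarbonate cotransporter of the basolateral membrane, had array values of 8.18, 8.06 and 8.31 in the wild type pools and 8.34, 8.39 and 8.13 in the activated pools. The pools of both genotypes were interleaved. The log2 change was 0.10, and its 95% interval of -0.14 to 0.34 holds neither a 2-fold decrease nor a 2-fold increase (adjusted p = 0.632 from limma, n = 3).

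Car2, the cytosolic carbonic anhydrase that makes bicarbonate from carbon dioxide, had array values of 6.66, 6.33 and 7.27 in the wild type pools and 7.69, 7.21 and 7.41 in the activated pools. Wild type replicate 3 was higher than activated replicate 2, so the groups overlapped. The log2 change was 0.68 with an SE of 0.21, and the adjusted p of 0.0643 from limma missed the threshold. Without wild type replicate 3 the log2 change was 0.94 and passed (adjusted p = 0.00650), and without any other single pool it did not (adjusted p from 0.0591 to 0.206). Red blood cell precursors also make Car2. Of 10 erythroid genes 2 were higher and 0 lower, beside 6.59% and 7.53% of all genes. The median log2 change of the 10 was 0.09, and 3 of them were below 0. Hbb-bh1, an embryonic globin, had the largest, 0.59 (SE 0.15, adjusted p = 0.0253 from limma). The mean level of the 10 lay between 7.37 and 7.76 in the wild type pools and between 7.54 and 7.80 in the activated pools, and its part in the values of Car2 was not tested.

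Prom1, a membrane glycoprotein of apical protrusions that marks duct and other epithelial cells, had array values of 8.15, 8.51 and 8.02 in the wild type pools and 8.26, 8.20 and 8.24 in the activated pools. The activated pools fell within the span of the wild type pools. The log2 change of Prom1 was 0.0024 with a 95% interval of -0.28 to 0.28 (adjusted p = 0.994 from limma, n = 3).

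Foxj1, the transcription factor that switches on the genes of motile cilia, had array values of 5.73, 5.67 and 5.55 in the wild type pools and 5.52, 5.73 and 5.37 in the activated pools. The groups overlapped, and the log2 change was -0.11 with a 95% interval of -0.37 to 0.14 (adjusted p = 0.605 from limma, n = 3).

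Against shares of 7.53% lower and 6.59% higher over all genes tested, general epithelial genes moved beside these values. Of 26 such genes, 23 were lower and 0 higher by limma (also 0 higher at an unadjusted p under 0.05), with a median log2 change of -0.79, and their mean level lay between 9.36 and 9.58 in the wild type pools and between 8.43 and 8.60 in the activated pools. The serine protease gene Prss8 (log2 change -2.02, SE 0.16), the epithelial transcription factor Ehf (-1.97, SE 0.18), the keratin Krt8 (-1.84, SE 0.12) and the adherens junction gene Cdh1 (-1.68, SE 0.13) fell most, and Epcam fell by 0.39 on the log2 scale (SE 0.11, adjusted p = 0.0368 from limma).

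To set each duct and cilium gene against the epithelium of its own array, the mean of the 26 epithelial genes was subtracted from every array and the fit was repeated. On this scale Dcdc2a was still lower, with a log2 change of -1.52 (SE 0.17, adjusted p = 5.08e-06 from limma), and so was Pkhd1, with -1.07 (SE 0.15, adjusted p = 1.55e-05). Of all genes, 1.51% were lower on this scale and 95.2% were higher, since the subtracted mean itself fell. The other 6 genes were among those that were higher, from 0.46 for Bicc1 to 1.59 for Car2, and nothing is read from that beside 95.2% of all genes. Both decreases held with Epcam and Cdh1 alone as the reference and with each pool left out. Over these alternatives the log2 change ranged from -1.70 to -1.37 for Dcdc2a and from -1.18 to -0.94 for Pkhd1. Epcam and Cdh1 belong to the same 26 genes and fell unequally (-0.39 and -1.68), so their mean is no independent reference. A difference on this scale shows unequal change within an array against the mean of the 26 genes, whose own log2 changes ran from -2.02 to 0.23. Prss8, Ehf and Krt8 among them fell about as far as Pkhd1, so the p of Pkhd1 does not show a fall beyond that of every epithelial gene. On the deposited values the 5 pancreatic epithelial markers changed by -4.61 to -2.30 (median -3.86), against -2.42 for Dcdc2a and -1.97 for Pkhd1. Neither gene was tested relative to those markers.

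**Figure D2:**
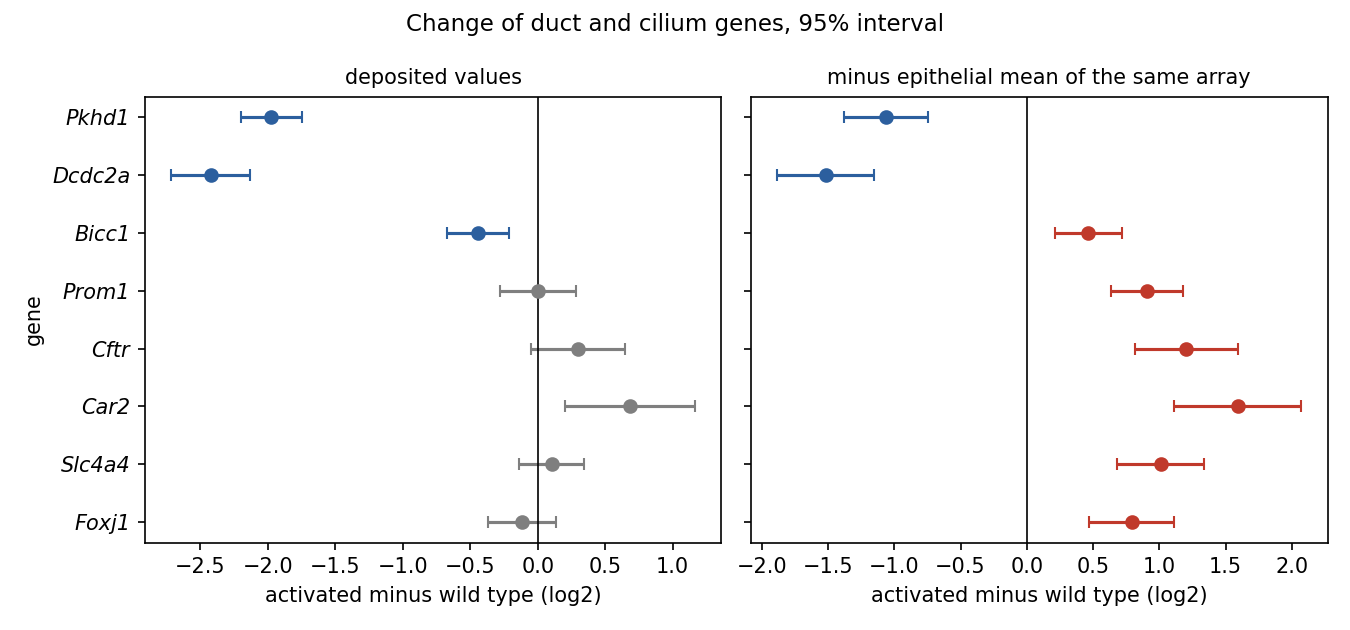
Log2 change (activated minus wild type, horizontal axis) of the 8 genes with its 95% interval, on the deposited values (left) and after the mean of 26 general epithelial genes was subtracted from each array (right). Blue and red mark genes lower and higher at an adjusted p under 0.05 and grey the rest. Pkhd1 and Dcdc2a lie left of 0 in both panels, and Bicc1 lies on opposite sides.

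The wider sets of duct genes held large decreases too. Over all genes tested, 7.53% were lower and 6.59% higher. Of 22 further genes of duct transport and the duct surface, 12 did not pass, 9 were lower and 1 was higher. The median log2 change of the 22 was -0.25, against -0.79 for the general epithelial genes. Without activated replicate 2, 2 of the 22 were higher, and among genes above the median level 0 were higher. Cldn10, a claudin that forms ion-selective paracellular channels, fell 12.5-fold, and its array values of 9.75, 9.88 and 9.95 in the wild type pools stood against 6.413, 6.242 and 6.004 in the activated pools (log2 change -3.64, SE 0.12, adjusted p = 1.34e-07). The apical mucin Muc1, which the study chose on these arrays, fell 7.86-fold. Atp1b1, a subunit of the sodium pump, fell 2.87-fold, and the duct keratin Krt7 fell 2.23-fold. Of the carbonic anhydrases in this list, Car14 (log2 change -0.81, SE 0.19, adjusted p = 0.0182 from limma) and Car12 (-0.48, SE 0.14, adjusted p = 0.0488) were lower. Car4 (0.29) and the exchangers Slc26a3 (0.11), Slc26a6 (-0.16) and Slc4a2 (-0.23) did not pass. The 1 gene that was higher was Sctr, the receptor through which secretin stimulates bicarbonate secretion, and it is named here because its value was seen. Its array values were 5.84, 5.82 and 5.95 in the wild type pools and 6.57, 6.50 and 6.82 in the activated pools (log2 change 0.76, SE 0.11, adjusted p = 0.000916).

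Among 10 transcription factors of the duct and trunk, 3 were lower and 0 were higher by limma, beside 7.53% and 6.59% of all genes. At an unadjusted p under 0.05 the counts of the 10 were 6 and 0. Their median log2 change was -0.27, against -0.79 for the general epithelial genes. Onecut1 fell 8.48-fold (log2 change -3.08, SE 0.14) and Glis3 3.60-fold (log2 change -1.85, SE 0.11). Both were chosen by the study on these arrays. Tcf7l2, a nuclear partner of β-catenin, fell 1.40-fold (log2 change -0.48, SE 0.09, adjusted p = 0.00666).

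The 60 further genes of cystic disease and the primary cilium took in intraflagellar transport, the transition zone, the BBSome and the polycystin gene Pkd1. By limma, beside 7.53% and 6.59% of all genes, 0 of the 60 were lower and 0 higher. At an unadjusted p under 0.05, 4 were lower and 5 higher, with a trended and robust prior or among genes above the lower quartile of level 1 was lower, and with arrays centred on housekeeping genes or among genes above the median level 2 were lower. Their log2 changes ranged from -0.30 to 0.29 with a median of 0.04, and their mean level lay between 8.001 and 8.010 in the wild type pools and between 7.95 and 8.09 in the activated pools. The smallest p among them was that of Anks6, which encodes a ciliary protein that binds Bicc1. Its array values were 7.73, 7.61 and 7.58 in the wild type pools and 7.31, 7.40 and 7.31 in the activated pools, which do not overlap. The log2 change of Anks6 was -0.30 (SE 0.09, adjusted p = 0.0554 from limma). The RNA is that of the whole organ, so the change of the 60 genes in the epithelium alone was not measured.

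Foxj1 is known to control genes of motile cilia, and the list read here also holds other regulators, such as Mcidas, Gmnc and Rfx3. Of its 37 genes, 31 did not pass, 4 were lower and 2 were higher, near the shares of 7.53% and 6.59% over all genes. The counts are therefore no result about the list. At an unadjusted p under 0.05, 7 were lower and 5 higher, and the median log2 change was 0.02. Ccno, a cyclin-like protein needed for the many centrioles of multiciliated cells, rose 2.35-fold, from 5.34, 5.01 and 5.21 in the wild type pools to 6.32, 6.19 and 6.74 in the activated pools (log2 change 1.23, SE 0.15, adjusted p = 0.000326). Dnaaf3, a factor that assembles dynein arms, rose 1.38-fold. The axonemal genes Tekt2 and Rsph4a fell 1.62-fold and 1.51-fold. The mean level of the 37 was low, between 5.64 and 5.68 in the wild type pools and between 5.60 and 5.72 in the activated pools. The median over genes lay between 7.06 and 7.15 in the 6 arrays. Without wild type replicate 1 or wild type replicate 3, and with all rows of the array in the fit, 2 of the 37 were lower, and among genes above the median level 2 were lower and 0 higher.

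**Figure D3:**
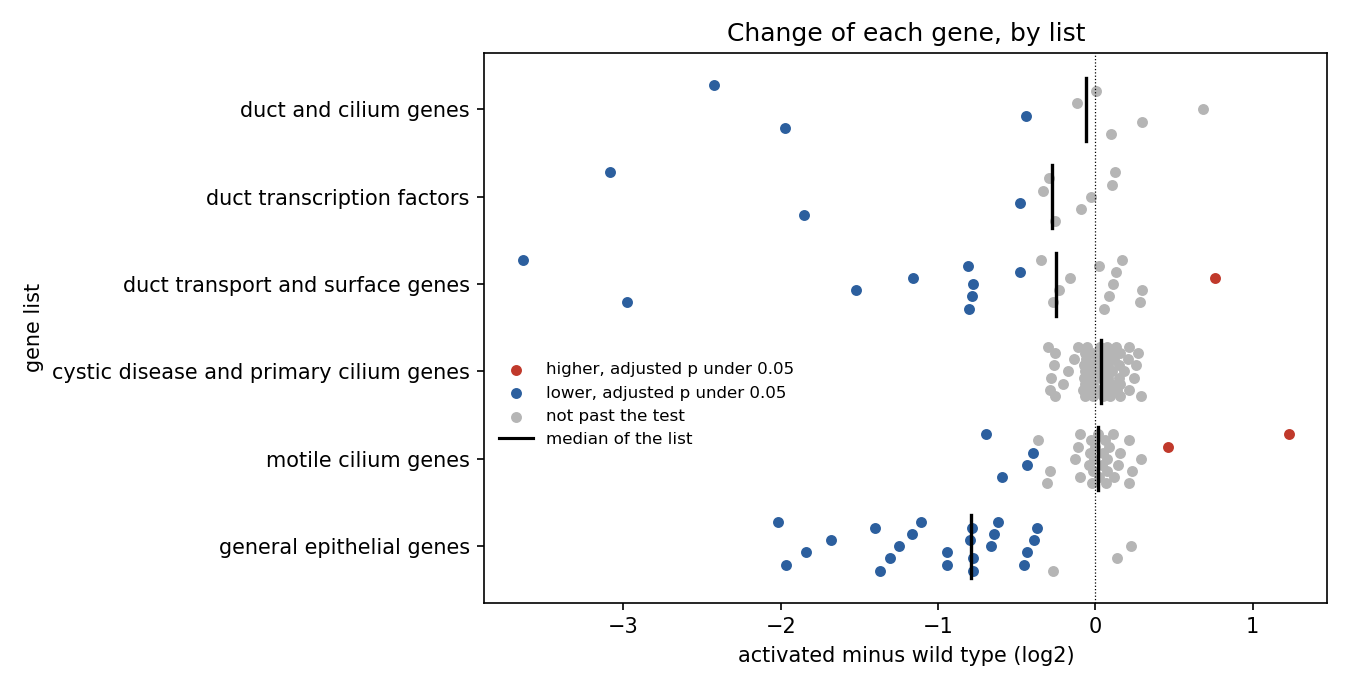
Log2 change (activated minus wild type, horizontal axis) of each gene of 6 lists, with black bars at the medians and blue and red points lower and higher at an adjusted p under 0.05. The 60 further genes of cystic disease and the primary cilium lie between -0.30 and 0.29, whereas the lists of duct and epithelial genes reach far to the left.

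The pattern of Dcdc2a over the 6 pools was nearest to that of Gjb2, Dcx and Pik3ap1, by the Euclidean distance between values centred on their own means (0.2498, 0.3118 and 0.3796). Gjb2 encodes the gap junction protein connexin 26 and Dcx a doublecortin-domain protein of neurons, and their log2 changes were -2.29 and -2.32. Pik3ap1, an adaptor of phosphoinositide 3-kinase, had a log2 change of -2.53. Over 6 arrays of 2 genotypes, genes that fell by a similar amount lie near each other on this measure.

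Markers of other cell types were read in the same fit, beside shares of 7.53% lower and 6.59% higher over all genes. Of 13 macrophage and leukocyte genes 0 passed in limma, against 1 lower and 2 higher at an unadjusted p under 0.05 (Mrc1 had the largest change, -0.32, adjusted p = 0.0844), and of 10 endothelial genes 1 was higher (largest change Tek, 0.34, adjusted p = 0.144). Of 10 mesenchymal genes 2 were lower and 3 higher, led by Prrx1 (-2.49). Of 8 mesothelial genes 4 were lower, led by Lrrn4 (-0.94), and of 8 neural and glial genes 7 were lower, led by Dcx (-2.32). Their mean levels in the wild type and the activated pools ran from 7.59 to 7.72 and 7.63 to 7.88 for macrophages and leukocytes, from 9.10 to 9.28 and 9.33 to 9.46 for endothelium, and from 10.24 to 10.42 and 10.07 to 10.24 for mesenchyme. They ran from 8.15 to 8.36 and 7.76 to 7.99 for mesothelial genes and from 8.03 to 8.19 and 7.27 to 7.33 for neural and glial genes. Which cells expressed the listed genes was not measured, so these levels are no count of cells. The part of these cells in the decreases of Pkhd1, Dcdc2a and Bicc1 was not tested.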

How the data were processed

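RNA of 3 wild type pools and 3 activated pools was measured, with groups and replicate numbers taken from the sample labels. The deposited table holds log2 expression values that the authors normalized, with 35556 rows, 1 per transcript cluster, and how background was corrected and probes were summarized is not stated, and depth is given only by the number of arrays. Rows with 1 symbol in the platform annotation (21789) were used, 1621 rows with several symbols and 12146 with none were left out, and the highest mean decided between the rows of the 999 genes that had more than 1. By Entrez identifier, 19856 of the 19938 genes matched RefSeq (GRCm38.p6), and 0 symbols changed. No filter on level was set.

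Groups were compared with limma 3.58.1 in R 4.3.3 (lmFit, eBayes, no covariate), with Benjamini-Hochberg adjustment over all genes and a threshold of 0.05. The fit was also run on simulated independent normal values, which says nothing of batch or pool effects in these arrays. All changes are activated minus wild type. An exact permutation test of 3 pools against 3 cannot fall below 0.1. P-values set the difference between groups against the spread between pools, which eBayes draws towards a value shared over all genes. Members and lists were chosen with earlier results of these data known, and the motifs after the changes were seen. Listed genes with no tested row are not analysed here. Named are all members, of each context list up to 4 genes past the test with the largest change (or the smallest p where none passes), the largest change of each list of another cell type, Epcam, Cdh1, Pdx1 and the 3 genes nearest to the most lowered member. No member passed as higher, so no such neighbours were taken. Sctr, Car4, Car12, Car14, Slc26a3, Slc26a6 and Slc4a2 were added after their values were seen. Alternatives were a block for the replicate number, the loss of any 1 array, 3 further scalings, 2 filters on level, 2 other uses of rows, another variance prior, an unadjusted threshold and 2 other epithelial references. Python 3.11.15, pandas 2.3.3 and matplotlib 3.10.9 drew the figures.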

Additional observations from a re-analysis of the deposited data

How the results depend on the processing

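Pkhd1 and Dcdc2a stayed lower and past the threshold in all 15 alternatives in which each was tested, with log2 changes from -2.02 to -1.91 and from -2.55 to -2.30. Of the 8 genes, 2 to 3 were lower and 0 to 1 higher with 1 array left out. With genes above the median level alone, which leaves out Pkhd1 and Dcdc2a, 1 was lower. With genes above the lower quartile, and with an unadjusted p under 0.05, 1 was higher (Car2). Prom1, at a log2 change near 0, ran from -0.0997 to 0.1429 with 1 array left out and was -0.0422 with arrays centred on housekeeping genes. Over all genes, 1313 were higher and 1502 lower, against 2695 and 2386 at an unadjusted p under 0.05 and 751 higher with all rows in the fit. With 1 array left out, 843 to 1328 were higher. The count of 843 was the one without activated replicate 1.

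The replicate numbers did not pair the pools: deviations of same-numbered pools correlated at r = -0.154 to 0.014, and 1 of 6 pools correlated best with its own number. With the replicate number as a block, Bicc1 had an adjusted p of 0.0567 from limma, so 2 genes were lower, and 1011 of all genes were higher and 1274 lower. The block changed no other call of the 8 genes. The cause of the other differences was not tested.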
